A study of Homo sapiens with 12 samples.

Results

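The AP-1 transcription factors were followed through USP7 inhibition in K562, an established line of human chronic myeloid leukemia cells. The genes were chosen by name and comprise the FOS family (FOS, FOSB, FOSL1 and FOSL2), the JUN family (JUN, JUNB and JUND) and the related genes ATF3 and BATF3. All 9 were found among the 60609 genes that the count files list. The RNA-seq data comprise 3 libraries of K562 cells given DMSO, the solvent control, and 3 libraries of cells given 10 μM FT671, a compound that blocks the deubiquitinase USP7, and both groups were kept for 48 h. All libraries come from the same cell line with no engineered allele. The study asked what loss of USP7 activity does to the expression of genes bound by the Polycomb complex PRC1.1, and the AP-1 genes are described here for their own sake.

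AP-1 is a dimer of basic leucine zipper (bZIP) proteins. JUN proteins pair with each other or with FOS proteins, whereas FOS proteins need a JUN partner to bind DNA well, and the dimers recognize the sequence TGACTCA. Several of the genes are immediate early genes, which are transcribed within minutes of a growth factor or stress signal that reaches them through MAP kinases, and in K562 cells AP-1 is known for its part in the response to phorbol ester, which drives these cells toward the megakaryocyte lineage.

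Expression is given as CPM, the count scaled by the size of its library, and values after ± are SDs over the 3 libraries of a group. Libraries held between 4555220 and 14250500 counts, so that the detection floor of 3 counts lay between 0.211 and 0.659 CPM, which covers counting error only. Of the erythroid markers expected in K562 cells, 12 of 13 passed the filter on low counts. At an edgeR adjusted p of 0.05, 6 of these were higher and 6 lower after FT671. Over all genes tested, 23.6% were called higher and 26.5% lower, so all 12 were called against 50.1% of all genes. The summed expression of the 13 markers was 1297 to 1334 CPM (DMSO) and 1167 to 1216 CPM (FT671). The embryonic globin gene HBZ and HBA2 had the largest log2 fold changes among them, at 1.79 and 2.67 (edgeR adjusted p = 2.77e-08 and 1.24e-04), and EPOR, the erythropoietin receptor gene, fell with −1.21 (edgeR adjusted p = 1.18e-05). Of 6 T cell, 5 monocyte and 6 fibroblast markers, 1 in each list passed the filter, namely CD3D, LYZ and COL1A1. The T cell markers CD8A and LCK and the fibroblast markers COL3A1, LUM and PDGFRA had 0 counts in every library. No monocyte marker had 0 counts in every library. The summed level of the monocyte markers, nearly all of it LYZ, was 51.2 to 54.2 CPM (DMSO) and 72.4 to 75.7 CPM (FT671), that of the T cell markers 17.1 to 20.5 and 24.4 to 29.7 CPM, and that of the fibroblast markers 2.37 to 2.90 and 2.58 to 2.88 CPM. The part of these markers in the results was not tested. The transcript of USP7 itself was lower after FT671, at 33.0 ± 3.37 against 119 ± 12.2 CPM (edgeR adjusted p = 2.66e-08).

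USP7 inhibition moved AP-1 genes in both directions. ATF3 rose 3.08-fold, JUN and JUND rose by 1.45-fold and 1.49-fold, and FOSL1 and FOSL2 fell to 0.582 and 0.549 of their level in DMSO. Of the 9 genes, 7 had enough counts to be tested by the quasi-likelihood method of edgeR, and p-values were adjusted over all 13895 genes tested (Benjamini-Hochberg). At an adjusted p of 0.05, 3 were higher after FT671, where 23.6% of all genes tested were called higher, and 2 were lower, where 26.5% were called lower, and 50.1% were called in either direction. JUNB and FOSB did not pass, and FOS and BATF3 were too low to be tested. At the stricter adjusted p of 1e-05, edgeR called ATF3 alone among the tested AP-1 genes, against 1.79% of all genes called higher and 4.13% called lower (5.92% in either direction). The study's methods apply 1e-05 to DESeq2, and in the DESeq2 Wald test JUN (adjusted p = 4.21e-09) and JUND (adjusted p = 6.09e-07) passed it beside ATF3. The share of all genes past 1e-05 in the DESeq2 test is not given here, so these calls stand without a background. All FT671 libraries lay above all DMSO libraries for 3 of the 7 tested genes and below them for 2, against 26.8% and 30.3% of all genes tested, or 57.1% with no overlap in either direction. With a background of this size, the number of AP-1 genes called does not set them apart. The median log2 fold change of the 7 tested genes was 0.098, which is the value of FOSB, against −0.010 over all genes tested. Its sign is not stable, since it ranged from −0.052 to 0.26 with each library left out. Since RNA was measured in bulk cultures, fewer cells expressing a gene and less of its RNA per cell cannot be told apart.

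**Figure D1:**
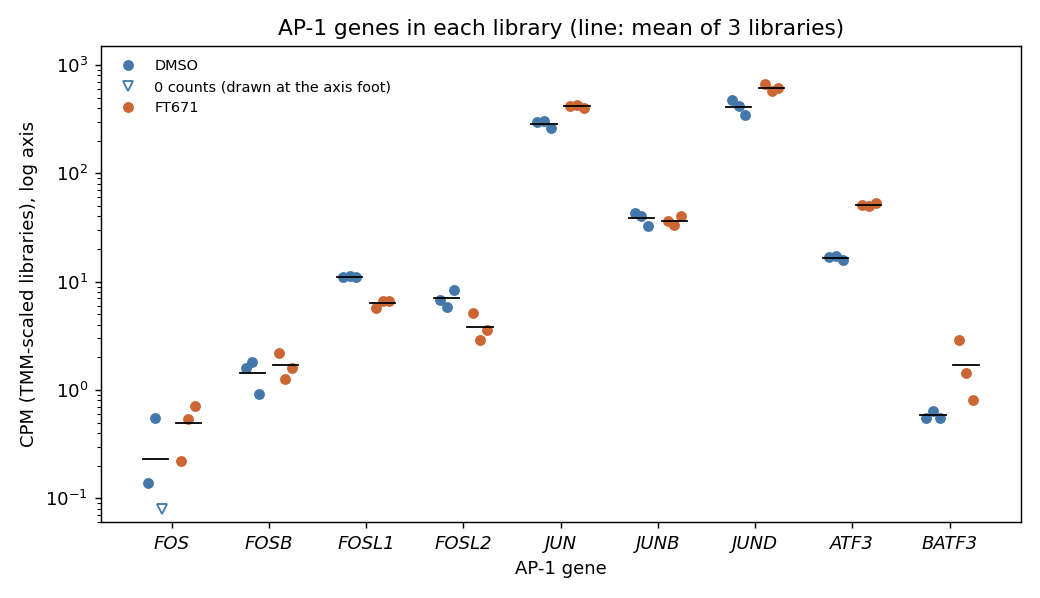
Expression of the 9 AP-1 genes in CPM on a log axis, with 1 point per library (blue, 3 DMSO libraries; orange, 3 FT671 libraries) and a line at each group mean. The FT671 points lie above all DMSO points for JUN, JUND, ATF3 and BATF3 and below them for FOSL1 and FOSL2, and the open triangle marks 0 counts of FOS in DMSO replicate 3.

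Within the JUN family, JUN and JUND were higher after FT671 and JUNB was not distinguishable between the groups. JUN (ENSG00000177606, chromosome 1 from 58776845 to 58784048 in hg38, minus strand) encodes the founding member of the family, a strong activator of transcription. It was expressed at 296, 302 and 262 CPM in DMSO replicates 1, 2 and 3 and at 419.9, 424 and 404 CPM in FT671 replicates 1, 2 and 3. The groups did not overlap, and the lowest FT671 library lay above the highest DMSO library by more than the range within either group. The log2 fold change was 0.53 (SE 0.0727, edgeR adjusted p = 4.09e-05).

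JUND (ENSG00000130522, chromosome 19 from 18279694 to 18281622, minus strand) is the broadly expressed member that is transcribed in resting as well as growing cells. Its expression was 473, 420.3 and 346 CPM in the DMSO libraries and 666, 573 and 616 CPM in the FT671 libraries. DMSO replicate 3 was the lowest of all libraries, and the groups did not overlap. The log2 fold change was 0.58 (SE 0.0997, edgeR adjusted p = 2.93e-04). Without DMSO replicate 3 it was 0.46 with less spread (edgeR adjusted p = 1.14e-06).

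JUNB (ENSG00000171223, chromosome 19 from 12791486 to 12793315, plus strand) often opposes JUN and restrains proliferation in myeloid cells. It had 42.7, 40.5 and 32.6 CPM in DMSO and 36.1, 33.3 and 40.4 CPM after FT671, so that the groups overlapped over nearly their whole range. Its log2 fold change of −0.084 had a 95% interval from −0.34 to 0.17 and did not pass the test (edgeR adjusted p = 0.582), and its sign turned to 0.019 after a correction for GC content. JUNB lies wholly within the bounds of HOOK2 on the opposite strand, and the strand setting of the counting is not given in the sources used here. HOOK2 had 18.7 ± 1.22 CPM (DMSO) and 17.9 ± 3.06 CPM (FT671), edgeR adjusted p = 0.762.

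ATF3 was the most changed of the AP-1 genes. ATF3 (ENSG00000162772, chromosome 1 from 212565334 to 212620777, plus strand) encodes a bZIP protein that is induced by many kinds of stress, pairs with JUN proteins, and as a homodimer represses transcription. Its expression was 16.8, 17.1 and 15.8 CPM in the DMSO libraries and 50.5, 50.3 and 53.1 CPM in the FT671 libraries. The libraries of each group were nearly equal, and the gap between the groups was many times wider than either range. The log2 fold change was 1.62 (SE 0.1005, 95% interval 1.41 to 1.84, edgeR adjusted p = 5.15e-08), and 99.0% of all genes tested had a lower log2 fold change.

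BATF3 (ENSG00000123685, chromosome 1 from 212686417 to 212699840, minus strand), known for its role in dendritic cell development, lies close to ATF3. It had 8, 7 and 3 counts in the DMSO libraries and 13, 8 and 9 counts in the FT671 libraries, or 0.552, 0.639 and 0.553 CPM and 2.88, 1.44 and 0.802 CPM. Every FT671 library lay above every DMSO library, but the FT671 values differed among themselves by more than the gap between the groups. BATF3 did not pass the filter on low counts. In a fit without the filter its log2 fold change was 1.29 (SE 0.490, edgeR adjusted p = 0.0390), with a 95% interval from 0.33 to 2.25. That fit called 3049 of all 31316 genes higher and 3994 lower at an adjusted p of 0.05.

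The FOS family was expressed at a low level throughout, and its most abundant members were lower after FT671. FOSL1 (ENSG00000175592, chromosome 11 from 65892049 to 65900573, minus strand) encodes FRA1, which lacks the strong activation domain of FOS. Its expression was 11.0, 11.2 and 11.1 CPM in DMSO, from 159, 123 and 60 counts, and 5.75, 6.65 and 6.68 CPM after FT671, from 26, 37 and 75 counts. The DMSO libraries were nearly equal, and all FT671 libraries lay well below them. The log2 fold change was −0.78 (SE 0.154, edgeR adjusted p = 8.30e-04).

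FOSL2 (ENSG00000075426, chromosome 2 from 28392448 to 28417317, plus strand) encodes FRA2, the close relative of FRA1. It had 6.83, 5.84 and 8.29 CPM in DMSO and 5.09, 2.88 and 3.56 CPM after FT671, where the counts were 23, 16 and 40. FT671 replicate 1 came near to the lowest DMSO library without reaching it. The log2 fold change was −0.87 (SE 0.231, edgeR adjusted p = 0.00649), with a wide 95% interval from −1.36 to −0.37.

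FOSB and FOS gave no detectable difference at this depth. FOSB (ENSG00000125740, chromosome 19 from 45467995 to 45475179, plus strand), an immediate early gene, had 23, 20 and 5 counts in DMSO and 10, 7 and 18 counts after FT671. Its expression was 1.45 ± 0.469 and 1.69 ± 0.484 CPM with overlapping groups, and the 95% interval of its log2 fold change ran from −0.63 to 0.83 (edgeR adjusted p = 0.829). ERCC1, a DNA repair gene on the opposite strand that overlaps FOSB, had far more reads, at 165 ± 8.57 CPM (DMSO) and 125 ± 12.0 CPM (FT671), and if reads were counted without strand some of them could not be told apart from those of FOSB.

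FOS itself (ENSG00000170345, chromosome 14 from 75278826 to 75282230, plus strand), the founding gene of its family, was close to silent. It had 2, 6 and 0 counts in DMSO replicates 1, 2 and 3 and 1, 3 and 8 counts in FT671 replicates 1, 2 and 3. In 4 of the 6 libraries it was at or under the floor of 3 counts, and the ranges overlapped. In a fit without the filter its log2 fold change had a 95% interval from −0.48 to 2.51.

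**Figure D2:**
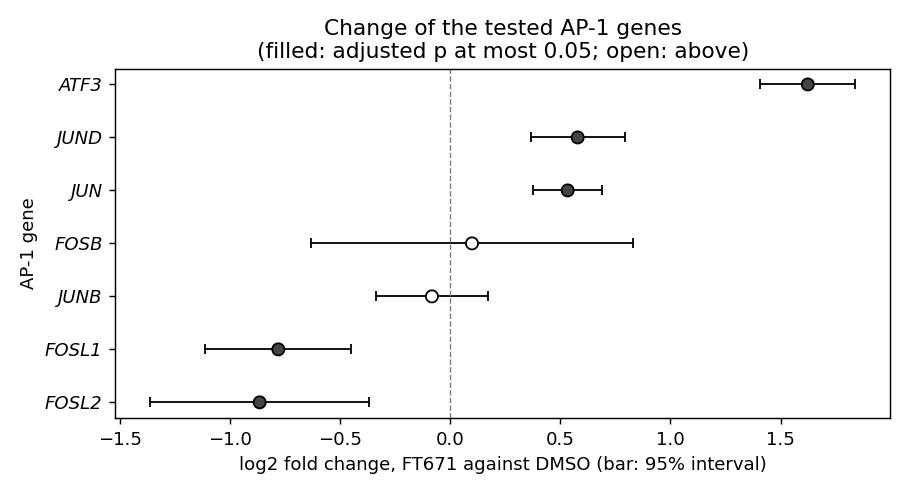
Log2 fold change after FT671 for the 7 tested AP-1 genes, with 95% intervals from edgeR's quasi-likelihood fit. Filled points, ATF3, JUND, JUN, FOSL1 and FOSL2, passed an adjusted p of 0.05, and the intervals of the open points, FOSB and JUNB, include 0.

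The promoters of the genes that changed are shown because AP-1 genes are classic targets of their own family. RefSeq promoter windows on GRCh38.p14, from 250 bases before to 50 bases after the start of transcription, were matched for 7 of the 9 genes, with 8 windows in all since ATF3 has 2 annotated starts here. FOSL1 and BATF3 were not matched. For ATF3 only the window of the first start is printed. That of the second, whose only match was TATAAA, is left out, and which start K562 cells use was not tested. The following lines give the 210 bases before the start, 5′ to 3′ on the strand of the gene, and for FOSL2 also the first 15 bases after it, with matches to the motifs searched in capitals.
JUN, chr1:58784048-58784257, minus strand: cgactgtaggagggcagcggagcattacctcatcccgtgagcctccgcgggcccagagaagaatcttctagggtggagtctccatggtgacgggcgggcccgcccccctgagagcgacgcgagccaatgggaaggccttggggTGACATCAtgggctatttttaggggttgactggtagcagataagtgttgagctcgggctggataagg
ATF3, chr1:212565197-212565406, plus strand: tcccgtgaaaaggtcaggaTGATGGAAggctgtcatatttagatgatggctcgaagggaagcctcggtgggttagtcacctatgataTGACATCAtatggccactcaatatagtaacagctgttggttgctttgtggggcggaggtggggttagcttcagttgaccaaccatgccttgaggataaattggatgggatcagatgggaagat
JUND, chr19:18281623-18281832, minus strand: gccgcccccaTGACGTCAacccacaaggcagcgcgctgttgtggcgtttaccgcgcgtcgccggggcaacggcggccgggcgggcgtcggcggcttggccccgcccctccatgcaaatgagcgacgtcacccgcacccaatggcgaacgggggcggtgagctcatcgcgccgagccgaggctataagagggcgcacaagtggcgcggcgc
FOSL2, chr2:28392648-28392872, plus strand: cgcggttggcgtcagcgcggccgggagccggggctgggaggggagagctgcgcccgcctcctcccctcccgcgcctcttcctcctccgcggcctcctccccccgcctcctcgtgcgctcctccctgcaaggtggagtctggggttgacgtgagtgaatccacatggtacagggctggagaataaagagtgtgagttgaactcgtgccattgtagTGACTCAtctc

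The motifs were searched on both strands, and none of the matches in these windows overlapped another. TGACATCA, the variant AP-1 site known from the JUN promoter, was found at −67 to −60 in JUN and at −123 to −116 in the first ATF3 window, and 2.61% of 34943 promoter windows of the same length hold it. Since the motif was taken from the JUN promoter, its match in JUN was fixed in advance. Both genes rose after FT671, and so did JUND, whose window did not hold TGACATCA. A link of the motif with the change was not tested. The cAMP response element TGACGTCA was found in JUND at −200 to −193 and is held by 1.84% of windows. The canonical AP-1 site TGACTCA was found only in FOSL2 among the 8 windows, at 5 to 11 after the start, and is held by 4.96% of windows. TGATGNAA, the C/EBP-ATF composite element, matched the first ATF3 window at −191 to −184 and 3.62% of all windows. TATAAA, the TATA box motif, was held by 11.6% of all windows. It lay at −33 to −28 in FOS, −30 to −25 in FOSB and −31 to −26 in JUNB. In the second ATF3 window it lay far from the start, at −230 to −225. No CArG box, the core of the serum response element, was found in the 8 windows (1.30% of all windows). Sequence more than 250 bases before the start was not searched, so a CArG box farther upstream would be missed. These matches describe the sequence and do not show that a factor was bound.

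Levels of different genes were compared per length of exon, as RPKM, which is CPM divided by exon length in kilobases. In DMSO the order was JUND (214 ± 33.1 RPKM), JUN (79.1 ± 5.94), JUNB (21.1 ± 2.91), FOSL1 (5.88 ± 0.0698), ATF3 (4.15 ± 0.163), FOSL2 (0.976 ± 0.172), FOSB (0.260 ± 0.0845), BATF3 (0.226 ± 0.0195) and FOS (0.0718 ± 0.0894). Among neighbors in this order, only the libraries of FOSB and BATF3 overlapped. After FT671 the order began with JUND (320.5 ± 24.1 RPKM), JUN (115 ± 2.97) and JUNB (19.997 ± 1.98). ATF3 at 12.8 ± 0.388 RPKM stood above FOSL1 at 3.37 ± 0.279 RPKM, whereas in DMSO it stood below it in every library. The order of these genes in DMSO rests on the division by exon length, 3998 bases for ATF3 and 1887 for FOSL1. In CPM, ATF3 stood above FOSL1 in DMSO as well, at 16.6 ± 0.653 against 11.1 ± 0.132. The RPKM ratio of ATF3 to FOSL1 was 0.724, 0.718 and 0.677 in the DMSO libraries and 4.14, 3.57 and 3.75 in the FT671 libraries. BATF3 and FOSL2 overlapped after FT671.

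The JUN family outweighed the FOS family by far in both groups, and the share of FOS family transcripts was lower in every FT671 library than in any DMSO library. The summed level of the JUN family was 350.1, 323 and 269 RPKM in DMSO and 481, 432 and 453 RPKM after FT671. The summed level of the FOS family was 7.10, 7.27 and 7.18 RPKM in DMSO and 4.23, 4.32 and 4.55 RPKM after FT671. Neither sum overlapped between the groups. FOS family transcripts amounted to 2.03%, 2.25% and 2.67% of the JUN family level in DMSO and 0.880%, 1.001% and 1.005% after FT671 (two-sided exact permutation test, p = 0.1, the smallest that 3 libraries against 3 allow). With adjustment over the 13 shares, sums and ratios compared in this way, the value was 0.163 (Benjamini-Hochberg on exact permutation tests), so none of the 13 could pass 0.05.

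JUND held 68.0% ± 1.82 of the JUN family level in DMSO and 70.4% ± 1.54 after FT671, and JUN held 25.3% ± 1.82 and 25.3% ± 1.59. The ratio of JUND to JUN was 2.70 ± 0.273 and 2.80 ± 0.229 (p = 0.8 by the exact permutation test, or 0.867 adjusted over the 13 comparisons). JUNB made up 6.71% ± 0.122 of the family level in DMSO and 4.40% ± 0.422 after FT671, with no overlap between the groups (p = 0.1 by the exact permutation test). In the FOS family, FOSL1 held 81.8% ± 0.193 of the level in DMSO and 77.2% ± 4.75 after FT671, and FOSL2 held 13.6% ± 2.45 and 12.3% ± 3.95.

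**Figure D3:**
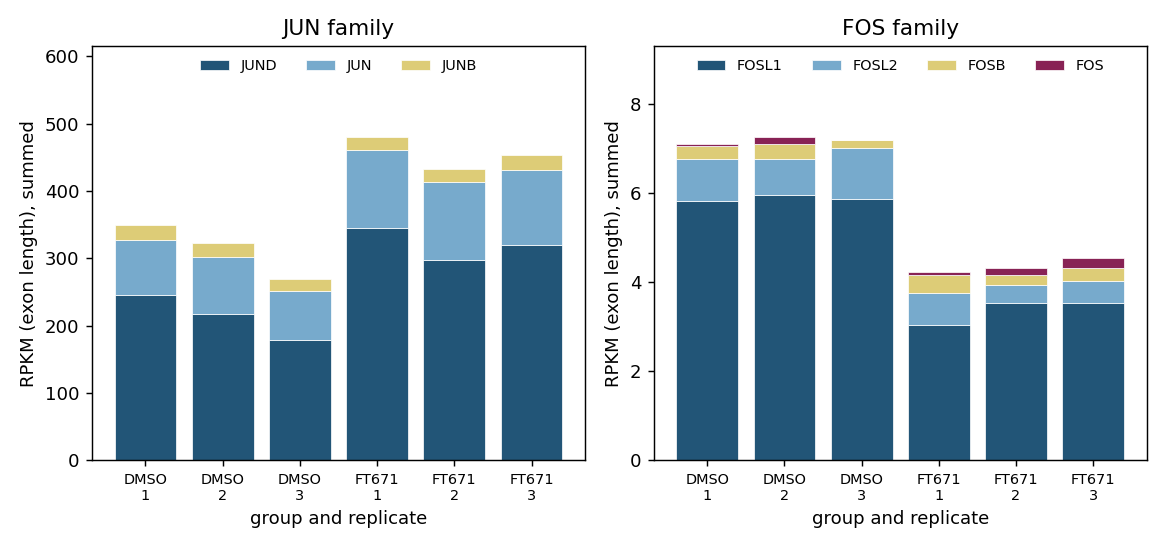
Summed expression per exon length (RPKM) of the JUN family (left) and the FOS family (right) in each of the 6 libraries, with bars stacked by gene and both axes starting at 0 on different scales. JUN family sums are higher in every FT671 library and FOS family sums are lower in every FT671 library, while JUND and FOSL1 remain the largest part of their families.

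The counts in the related gene lists stand against 23.6% of all genes tested called higher and 26.5% called lower, and no list was tested against other genes. Upstream of AP-1, the genes listed for a part in the transcription of FOS and JUN were mostly lower after FT671. Of 19 tested genes in this list, 12 passed an adjusted p of 0.05 as lower (26.5% of all genes tested) and 1 as higher (23.6% of all genes tested), and the median log2 fold change was −0.52. SRF, the factor that binds the serum response element, fell from 116 ± 5.31 to 58.1 ± 1.45 CPM (log2 fold change −1.003, SE 0.0785, edgeR adjusted p = 2.76e-07). CRTC1, a coactivator of CREB, fell from 10.5 ± 0.478 to 5.17 ± 0.727 CPM (edgeR adjusted p = 3.44e-04). ELK4, a partner of SRF, was the gene that rose, with a log2 fold change of 0.27 (edgeR adjusted p = 0.0306), and its call was lost when libraries were scaled by their totals alone.

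Among MAP kinases, the kinases that activate them and kinases that they activate (MAPKAPK and RPS6KA genes), few were higher. Of 33 tested genes, 16 were lower and 1 was higher, with a median log2 fold change of −0.23, where 26.5% and 23.6% of all genes tested were called. The counts lower and higher were 10 and 3 after a correction for gene length, 19 and 4 after one for GC content, and 18 and 2 with the replicate block. Over all genes tested they were 3310 and 3843, 3727 and 4040, and 3761 and 3374 in these fits, against 3687 and 3276 without them. MAP3K11 and MAP3K3, which act at the top of the JNK and ERK5 cascades, had log2 fold changes of −1.14 and −0.92 (edgeR adjusted p = 1.29e-06 and 1.22e-04). MAPK12, a p38 kinase, rose from 23.3 ± 3.53 to 31.3 ± 0.529 CPM (edgeR adjusted p = 0.0122).

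Genes for the turnover of JUN and FOS proteins were called in both directions, as were all genes tested (26.5% lower and 23.6% higher). Of 15 tested genes, 6 were lower and 3 higher, and the median log2 fold change was 0.062. After the gene length correction 5 were lower and 6 higher, where 3310 and 3843 of all 13872 genes tested were called. COP1, a ubiquitin ligase that targets JUN, fell from 36.7 ± 3.93 to 23.1 ± 0.0892 CPM (edgeR adjusted p = 2.49e-04), and the ligase gene NEDD4 fell with a log2 fold change of −0.93 (edgeR adjusted p = 6.23e-06). TRIB1, an adaptor that brings substrates to COP1, rose from 12.6 ± 1.55 to 27.3 ± 3.57 CPM (edgeR adjusted p = 1.27e-05). CUL4A, a ligase scaffold, had a log2 fold change of 0.29 (edgeR adjusted p = 0.00890).

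Among the bZIP genes that can pair with or resemble AP-1 proteins, 13 of 31 tested genes were lower and 6 were higher, where 26.5% and 23.6% of all genes tested were called, and the median log2 fold change was −0.37. MAFG, a small MAF protein that pairs with NFE2 and FOS proteins, fell from 117 ± 7.95 to 44.96 ± 0.670 CPM (log2 fold change −1.39, SE 0.0840, edgeR adjusted p = 4.65e-08). ATF5, a stress-response relative of ATF4, fell from 670.0 ± 45.8 to 287 ± 16.4 CPM (edgeR adjusted p = 5.11e-08). The largest rises of this list were those of NFIL3 and MAFF, with log2 fold changes of 0.79 and 0.65 (edgeR adjusted p = 3.40e-05 and 0.00207).

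The other immediate early genes were called in both directions. Of 31 tested genes, ATF3 included, 13 were higher and 10 lower, where 23.6% and 26.5% of all genes tested were called, and the median log2 fold change was 0.16. SRF, TRIB1 and MAFF of this list were also counted in the lists above, SRF as lower and TRIB1 and MAFF as higher. GADD45B, a stress-response gene, had 1.17, 2.01 and 0.921 CPM in DMSO and 4.65, 5.93 and 6.50 CPM after FT671, a log2 fold change of 2.03 (SE 0.282, edgeR adjusted p = 4.72e-05). NR4A2, an orphan nuclear receptor, rose from 6.69 ± 0.854 to 21.3 ± 0.439 CPM, with a log2 fold change of 1.64 (edgeR adjusted p = 5.39e-07). Its size was close to that of ATF3. DUSP5, an ERK phosphatase, and BTG2, an antiproliferative gene, fell with log2 fold changes of −1.05 and −1.04 (edgeR adjusted p = 0.0121 and 2.86e-06).

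Of the genes commonly described as AP-1 targets, many had too few counts to be tested. Only 16 of the 31 genes matched passed the filter, and 8 of the 31, among them the collagenases MMP1 and MMP13, were listed at 0 counts in all 6 libraries. HMOX1, heme oxygenase, is among these although K562 cells are known to express it, so a listed 0 is not read here as absence of the transcript. Of the 16 tested, 9 were higher and 5 lower, where 23.6% and 26.5% of all genes tested were called, the median log2 fold change was 0.42, and JUN and FOSL1 belong to this list as well. MT2A, a metallothionein, and TXN, thioredoxin, rose with log2 fold changes of 1.80 and 0.83 (edgeR adjusted p = 3.60e-05 and 7.16e-06). EZR, which links membrane and actin, and GCLC, an enzyme of glutathione synthesis, fell with log2 fold changes of −1.25 and −1.23 (edgeR adjusted p = 1.96e-08 and 1.67e-05).

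**Figure D4:**
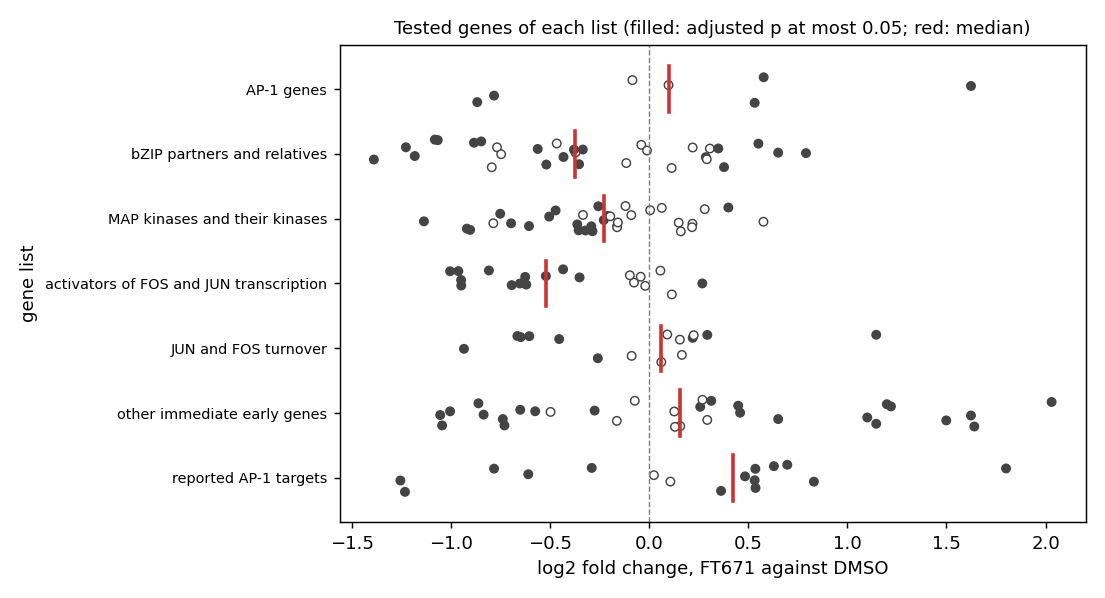
Log2 fold change after FT671 of every tested gene in the AP-1 list and 6 related lists, with 1 point per gene, filled where the adjusted p was at most 0.05, and a red bar at the median. Points are spread vertically for legibility. The medians range from −0.52 for the list labeled activators of FOS and JUN transcription to 0.42 for reported AP-1 targets.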

How the data were processed

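RNA-seq read counts of K562 cells treated with DMSO or FT671 were re-analysed. The authors mapped paired-end reads from ribosomal RNA-depleted total RNA by two-pass STAR alignment against hg38 and deposited raw counts per gene, without normalization. The version of STAR, the annotation release and the strand setting are not given in the sources used here. The 6 ChIP-seq samples of the series were not analysed here. Of the 60609 genes, 60295 were matched by Ensembl identifier to GENCODE release 44, which gave symbols, positions and exon lengths, and 31 of 32 listed AP-1 targets had a match by symbol.

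Genes were filtered with filterByExpr, libraries scaled by TMM, and groups compared with the quasi-likelihood test of edgeR 4.0.16 (R 4.3.3) over all 6 libraries without covariates, with Benjamini-Hochberg adjustment over 13895 genes. The standard error is the log2 fold change divided by the square root of F. CPM and RPKM use TMM-scaled totals, and RPKM also the union of annotated exons. Shares and ratios were compared by exact permutation tests over the 20 assignments of 6 libraries to 2 groups of 3. The paper describes the libraries of a group as coming from independent experiments, which the sample labels do not state, and p-values measure the spread between these libraries. Pairs of replicates differed by more than counting error (chi-square per degree of freedom 2.07 to 8.73). The pairs with DMSO replicate 3 had 7.55 and 8.73, and the others 2.07 to 3.20.

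The AP-1 genes and all gene lists were chosen with earlier results of these data known. Named from each list were the 2 lowest and the 2 highest log2 fold changes past 0.05, except that a few genes and 1 marker list are not reported here. In addition to the AP-1 genes themselves, USP7, tested genes overlapping them or starting within 50 kb, and for each the protein-coding gene with the most similar pattern were named. Alternatives were DESeq2 1.42.0 (size factors, Wald test), library totals, filters, loess corrections for gene length and GC content, the replicate number as a block, and leaving out each library.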

Additional observations from a re-analysis of the deposited data

How the results depend on the processing

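ATF3, JUN, JUND, FOSL1 and FOSL2 kept their direction and their side of an adjusted p of 0.05 in all 16 alternatives. Their log2 fold changes ranged from 1.58 to 1.69, 0.47 to 0.61, 0.46 to 0.69, −0.90 to −0.68 and −1.04 to −0.73. The highest adjusted p was 0.0455, for FOSL2. At an adjusted p of 1e-05, 1 gene was higher and 0 were lower, where 1.79% and 4.13% of all genes tested were called. At 0.05 the number called higher was 3 to 4 and the number called lower 2 with each library left out. In these fits, 2522 to 3830 of all 13301 to 14917 genes tested were called higher and 2972 to 4100 lower. BATF3 entered without DMSO replicate 3 (log2 fold change 1.27, adjusted p = 0.0452 from edgeR) as it did without the filter. JUNB reversed to 0.019 with the GC content correction and to 0.00033 with that correction and the replicate block. Both JUN and JUND also passed 1e-05 in the DESeq2 Wald test, without the filter, with the GC content correction, with both corrections and the block, and without DMSO replicate 3, and JUN also with the replicate block alone and the gene length correction alone. For these fits, the shares of all genes past 1e-05 are not given here. FOSB ranged from −0.052 to 0.23 in the 5 fits with a library left out in which it was tested, since it did not pass the filter without DMSO replicate 2, and was below 0 without DMSO replicate 3 and without FT671 replicate 1.

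The median of the tested AP-1 genes, 0.098, became 0.22 with at least 10 counts in every library (FOSB dropped), 0.22 with the replicate block, 0.18 and 0.21 with the gene length and GC content corrections, and 0.31 and 0.30 with these and the block. It ranged from −0.052 to 0.26 with each library left out. The change in JUN's share of its family ranged from −1.07 to 0.70 percentage points with each library left out. The cause of these shifts was not tested, beyond the median being 1 gene of few counts. For the other lists, 41 of 48 alternative counts were within 1.5 times the main count.

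Replicate numbers are shared by the groups, and same-numbered libraries correlated in their deviations at 0.115, −0.061 and 0.140 for replicates 1, 2 and 3. DMSO replicates 1 and 3 each correlated best with the FT671 library of the same number. DMSO replicate 2 correlated best with FT671 replicate 1, at 0.125. With values this small, the correlations do not settle whether the libraries were paired. With the replicate block 3374 genes in all were higher and 3761 lower, against 3276 and 3687 without it, and it changed no call of an AP-1 gene at 0.05. Depth limits FOS, FOSB and BATF3, with at most 23 counts in a library.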

Other observations

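Of 18 tested genes that overlap an AP-1 gene or start within 50 kb of it, 7 were higher and 3 lower after FT671 at an adjusted p of 0.05 from edgeR, where 23.6% and 26.5% of all genes tested were called. Around JUNB, which did not pass the test, PRDX2, a peroxiredoxin gene, rose from 299 ± 34.1 to 460.3 ± 20.8 CPM (SD, n = 3 in each group; edgeR adjusted p = 3.86e-05), and MAST1, a kinase gene, had a log2 fold change of 0.65 (edgeR adjusted p = 5.19e-05). RTBDN and the lncRNA gene ENSG00000267062 also rose, by log2 fold changes of 1.01 and 0.60 (edgeR adjusted p = 0.0191 and 2.68e-05), and ENSG00000267062 covers nearly the same bases as PRDX2 on the opposite strand, so without the strand setting their reads cannot be told apart. RNASEH2A and the overlapping HOOK2 had values of −0.014 and −0.055. Around FOSL1, which fell, DRAP1 and CFL1 rose with log2 fold changes of 0.64 and 0.44 and C11orf68 fell with −0.52 (edgeR adjusted p = 5.13e-04, 2.78e-04 and 0.00134), and MUS81, FIBP and CCDC85B did not pass. Near FOSB, ERCC1 and RTN2 fell with log2 fold changes of −0.40 and −0.79 (edgeR adjusted p = 0.00109 and 8.20e-05), and VASP and PPM1N did not pass. LSM4 beside JUND rose with a log2 fold change of 0.24 (edgeR adjusted p = 0.0261), and the lncRNA gene ENSG00000260805 near ATF3 had 0.26 without passing.

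The protein-coding gene whose centered log2 CPM over the 6 libraries came nearest to that of each AP-1 gene was PARK7 for JUN, MRPL11 for JUND, CYTH2 for JUNB, VGF for ATF3, TMEM39A for FOSL1, ROM1 for FOSL2 and WDR54 for FOSB. The root mean square differences were 0.023, 0.031, 0.051, 0.044, 0.043, 0.080 and 0.039 on the log2 scale, in the same order. The spread between replicates, as edgeR's biological coefficient of variation, was 0.0640 for FOSL1, 0.0684 for JUN and 0.0688 for ATF3, below the median of 0.0845 over all genes tested, and 0.0919 for JUND, 0.0933 for JUNB, 0.103 for FOSB and 0.111 for FOSL2, above it.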
